A study of Mus musculus with 12 samples.

Results

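Mitosis genes are described here in mouse pancreas across 4 groups: tumor cells, acinar cultures turning ductal, known as acinar-to-ductal metaplasia (ADM), embryonic acinar cells and adult acinar cells. The list holds 41 genes that act between mitotic entry and the separation of daughter cells. It was given by name, and each gene was read from its single-symbol probe set, that is, a probe set that the platform annotation pairs with only 1 gene symbol, taking the one with the highest mean over the 12 arrays. By this rule 40 of the 41 were measured, among 22180 genes in all, and Ccnb1 was not analysed here.

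Total RNA was biotin-labelled and hybridised to Affymetrix arrays, 3 per group, and all 4 groups carry the strain label C57Bl6/J wildtype. The tumor cells were low-passage cells in standard medium, and the labels do not say whether their 3 arrays come from 1 line or name an allele that drives the tumor. The ADM cultures were kept in a collagen gel for 7 days with TGF-alpha at 50 ng/ml, a ligand of the epidermal growth factor receptor, while the acinar cells of embryos and adults were digested out of the pancreas and lysed without culture; the age of the embryos and adults is not given. Replicates are numbered 1 to 3 in each group, but nothing says that they came from separate animals or cultures, so that p-values measure only the spread between these arrays, which may be technical.

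Entry into mitosis is driven by Cdk1 bound to a cyclin, after which the spindle attaches to kinetochores and a checkpoint holds back the anaphase-promoting complex until all chromosomes are attached. The complex then has securin and cyclin B destroyed, the sister chromatids part, and the central spindle guides the cleavage furrow. Transcripts of many of these genes are scarce in resting cells and accumulate from late S phase to mitosis, and adult acinar cells, which make digestive enzymes, seldom divide.

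Part of this timing is known to run through promoter elements: the cell cycle genes homology region (CHR), bound by the MuvB core of the DREAM and B-MYB complexes, and CCAAT boxes, bound by NF-Y. RefSeq promoter windows (build GRCm38.p6) of 300 bases, 250 before and 50 after the annotated start, were matched to 34 of the 41 genes, 36 windows in all. Incenp, Ccna2, Aurkb, Foxm1, Dlgap5, Tpx2 and Kif20a were not among them. Both strands were searched for the CHR words TTTGAA and TTCGAA and for CCAAT, which reads ATTGG on the other strand. A CHR word stood in 27 of the 36 windows (75.0%), against 19.2% of all 32851 windows. CCAAT stood at least once in 27 of the 36 (75.0%), against 37.4% of all windows, and at least 2 times in 19 (52.8%), against 11.7%. Prc1 and Ect2 have 2 windows each that hold the same words at shifted positions, so that their words count 2 times in all these shares. Both kinds stood together in 24 of the 36 (66.7%), against 7.53% of all windows, or by gene in 22 of the 34. Of these promoters 6 and 2 without a match are shown, from 150 bases before to 30 after the start and written along the gene's strand, with CHR words and CCAAT boxes in capitals; they were picked after the matches were seen.
Cdk1, chr10:69352883-69353062, minus strand: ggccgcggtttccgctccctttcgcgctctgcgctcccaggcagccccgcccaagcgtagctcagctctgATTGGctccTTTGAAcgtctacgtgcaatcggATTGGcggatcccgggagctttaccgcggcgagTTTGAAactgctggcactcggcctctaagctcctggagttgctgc
Ccnb2, chr9:70421525-70421704, minus strand: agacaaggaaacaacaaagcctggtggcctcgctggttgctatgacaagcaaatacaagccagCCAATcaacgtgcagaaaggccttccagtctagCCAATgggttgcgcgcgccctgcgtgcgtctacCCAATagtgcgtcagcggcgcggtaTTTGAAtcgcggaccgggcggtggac
Cdc20, chr4:118437314-118437493, minus strand: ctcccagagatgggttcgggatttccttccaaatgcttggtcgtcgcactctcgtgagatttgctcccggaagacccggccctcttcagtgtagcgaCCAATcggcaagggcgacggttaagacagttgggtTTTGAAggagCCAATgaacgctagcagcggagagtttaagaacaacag
Cdca8, chr4:124936888-124937067, minus strand: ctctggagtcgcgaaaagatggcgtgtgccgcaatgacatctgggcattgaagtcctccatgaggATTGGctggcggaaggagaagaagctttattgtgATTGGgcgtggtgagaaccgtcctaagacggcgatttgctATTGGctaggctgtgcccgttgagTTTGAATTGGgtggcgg
Cenpa, chr5:30666736-30666915, plus strand: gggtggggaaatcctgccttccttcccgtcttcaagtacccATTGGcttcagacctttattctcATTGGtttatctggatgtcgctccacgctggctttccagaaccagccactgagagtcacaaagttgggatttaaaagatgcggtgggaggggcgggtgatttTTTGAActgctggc
Racgap1, chr15:99651627-99651806, minus strand: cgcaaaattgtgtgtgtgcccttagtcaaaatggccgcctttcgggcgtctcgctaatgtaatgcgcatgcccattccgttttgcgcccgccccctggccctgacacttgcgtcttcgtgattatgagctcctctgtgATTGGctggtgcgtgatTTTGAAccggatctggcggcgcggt
Nusap1, chr2:119618148-119618327, plus strand: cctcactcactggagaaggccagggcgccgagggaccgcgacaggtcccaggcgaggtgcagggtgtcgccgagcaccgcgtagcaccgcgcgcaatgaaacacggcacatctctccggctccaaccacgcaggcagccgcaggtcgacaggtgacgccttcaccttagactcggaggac
Pttg1, chr11:43425952-43426131, minus strand: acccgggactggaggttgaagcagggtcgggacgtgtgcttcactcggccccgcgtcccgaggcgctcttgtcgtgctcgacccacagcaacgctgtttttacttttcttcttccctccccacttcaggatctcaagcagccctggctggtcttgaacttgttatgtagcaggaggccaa
In Cdk1 CHR words began at -71 and -15 from the start, with CCAAT boxes at -80 and -48. Ccnb2 had CCAAT boxes at -87, -54 and -21, each the same distance from the next, and a CHR word at 5. In Cdca8 the CHR word at 14 shares its last base with a CCAAT box read on the other strand, so that the capitals run together. Nusap1, which binds and bundles spindle microtubules, and Pttg1, the securin, held neither word in these 180 bases. Birc5, Mad2l1, Melk and Nuf2, not shown, likewise had no match in their windows. Those genes were called higher than in adult cells in tumor cells, ADM cultures and embryonic cells. A link between these words and the signal of the genes was not tested. A match of this kind is a description of the letters and not a bound site.

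**Figure D1:**
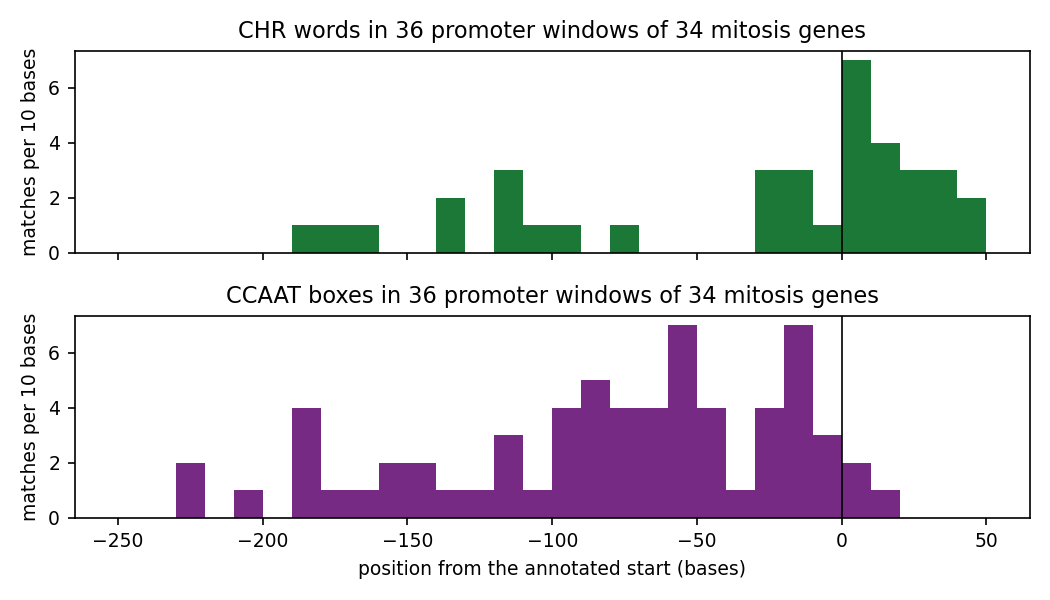
Position of CHR words (top) and CCAAT boxes (bottom) in the 36 promoter windows of 34 mitosis genes, as the number of matches per 10 bases (y axis) by distance in bases from the annotated start (x axis, vertical line at the start). Of 37 CHR matches, 26 begin at -30 or later, and of 65 CCAAT matches, 43 begin between -100 and -1.

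The mitosis genes were highest in tumor cells, intermediate in ADM cultures and embryonic acinar cells, and lowest in adult acinar cells. Their mean log2 signal over the 40 genes was 7.39, 8.51 and 8.78 on the 3 tumor arrays, 6.79, 6.15 and 6.63 on the ADM arrays, 7.05, 6.91 and 6.78 on the embryonic arrays and 4.27, 4.08 and 4.20 on the adult arrays. Every tumor array lay above every array of the other groups, the ADM and embryonic arrays overlapped, and the adult arrays lay lowest. By group means, 33 of the 40 genes ran tumor over embryonic over ADM over adult. The share of all genes in that order was not counted. Of the 33, only Mki67 and Nusap1 were called between embryonic cells and ADM cultures. The other 7, Nek2, Incenp, Pttg1, Dlgap5, Kif23, Anln and Ect2, had ADM above embryonic, but none of the 7 was called between those groups. In RNA from bulk samples, fewer dividing cells and less RNA per dividing cell cannot be told apart. Culture, medium and TGF-alpha also differ with the groups, and cannot be told apart from cell state here.

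**Figure D2:**
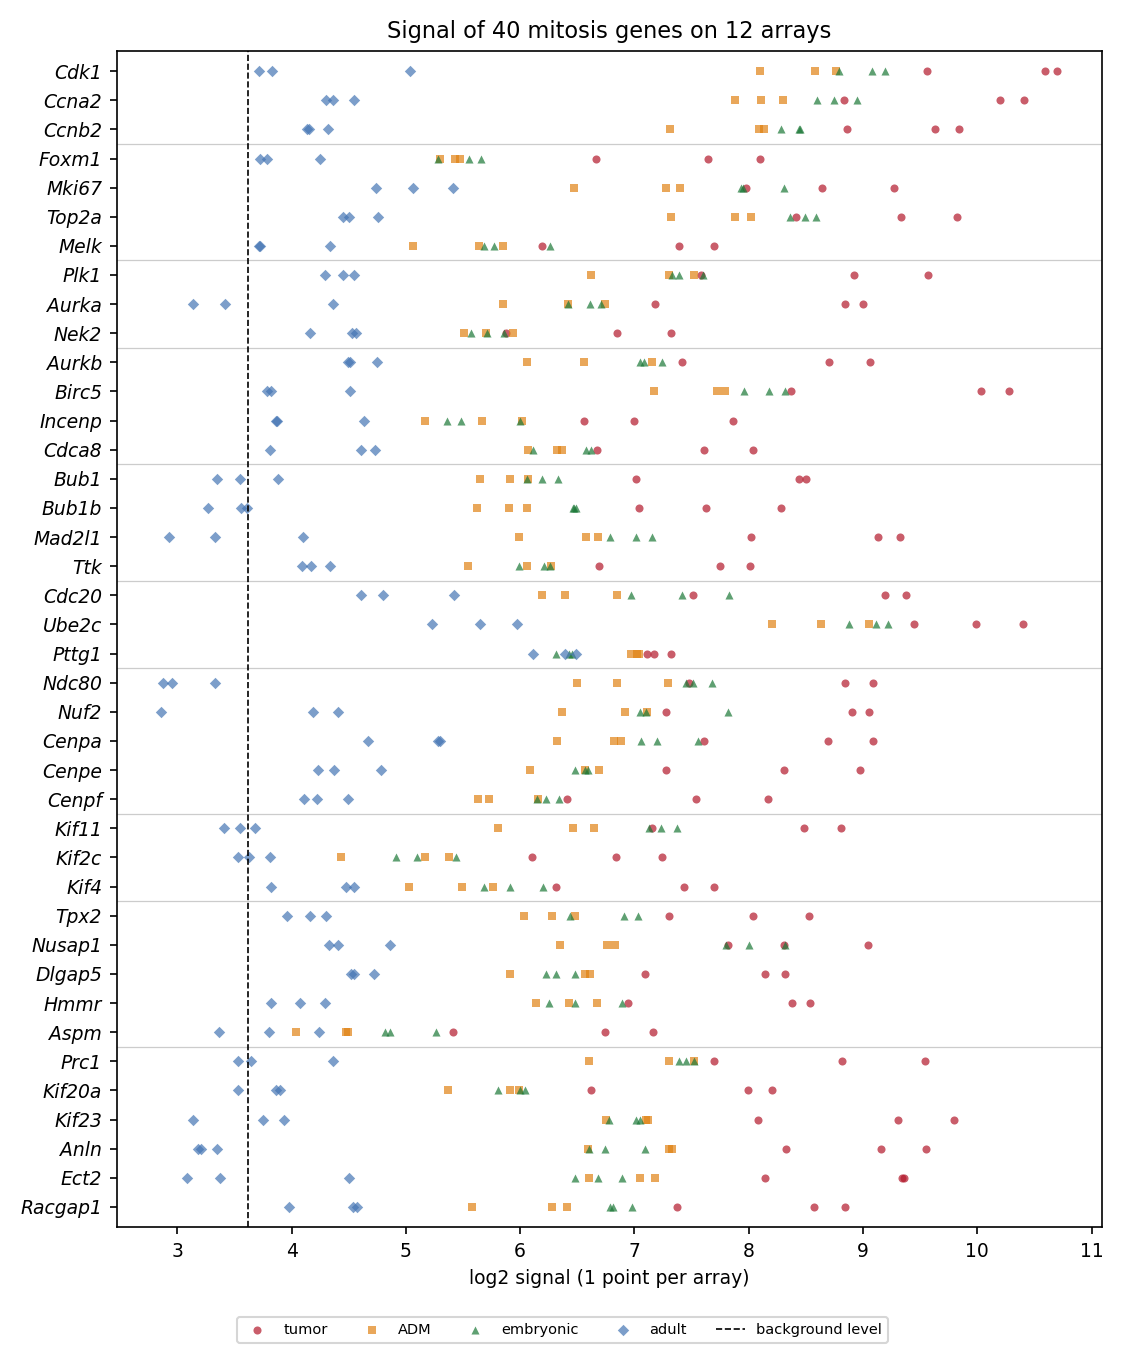
Log2 signal (x axis) of the 40 mitosis genes (rows, grouped by role between grey lines) on 12 arrays, 1 point per array and 3 per group. Tumor points lie farthest right in most rows, adult points mostly lie farthest left, some below the background level of 3.62 (dashed), and the row of Pttg1 spans only about 6.11 to 7.32.

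Array signals carry a background, set here at a log2 signal of 3.62, below which lay 95 percent of the group means of 1394 receptor genes of the smell and vomeronasal organs. No gene of the list lay at or under it in tumor, ADM or embryonic cells. In adult cells Bub1, Bub1b, Mad2l1, Ndc80, Kif11, Kif23 and Anln did, and their folds against adult cells are given as lower bounds against that level. Aurka, Ect2 and Kif2c lay just above it in adult cells, with means of 3.64, 3.65 and 3.66. Their differences from adult cells are given as measured, though they start close to background. All 40 genes, and all 22180 genes with them, were fitted with limma over the 12 arrays, with Benjamini-Hochberg adjustment per comparison, and a gene was called at an adjusted p under 0.05 and a log2 difference of at least 1 in size. Values after ± are standard errors of the fit for log2 differences and standard deviations (SD, n = 3) for levels.

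Within the groups the arrays were not alike. Tumor replicate 1 was the lowest tumor array in 39 of the 40 genes, by a median log2 difference of -1.27 from the mean of the other tumor arrays, against -0.01 over all genes. It lay lowest against the others in Birc5, with a difference of -1.78, and close to them in Pttg1, with -0.05. ADM replicate 2 was the lowest ADM array in 40 of the 40 genes, with a median difference of -0.58, against 0.01 over all genes. The median SD of the 40 genes was 0.75 in tumor cells, 0.36 in ADM cultures, 0.17 in embryonic cells and 0.29 in adult cells, against 0.21, 0.15, 0.18 and 0.25 for all genes in the same groups. Arrays of the same group correlated at 0.967 to 0.991 over all genes, and arrays of different groups at 0.817 to 0.938.

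Markers of other cell types also moved with the groups, and their part in the results was not tested. The summed linear signal of 12 fibroblast and stellate markers was 139 to 146 in tumor cells, 2398 to 5708 in ADM cultures, 7189 to 12077 in embryonic cells and 1427 to 1512 in adult cells. In tumor cells 8 of the 12, Col1a2 and Dcn among them, were at or under background. ADM replicate 2, lowest for mitosis genes, was also the lowest ADM array for these markers, with a mean log2 signal of 6.81 against 8.0 and 7.97 on replicates 1 and 3. The same array was lowest for endocrine markers (5.69 against 6.43 and 6.23) and for immune and neural markers. It was not lowest for acinar, ductal, endothelial, erythroid or mesothelial markers. Acinar markers summed to 168 to 202 in tumor cells, 15062 to 20690 in ADM cultures, 45733 to 51163 in embryonic cells and 61090 to 62171 in adult cells, so that the acinar labels match their markers, while Cpb1, Cel, Amy2b, Zg16 and Ptf1a were at or under background in tumor cells. Of 10 ductal markers, 5 were called higher (14.0% of all genes) and 3 lower (5.96%) in tumor cells than in adult cells, while 8 were called higher in ADM cultures (12.5%). Embryonic cells were called higher than adult cells in 8 of 11 immune, 8 of 10 endothelial, 9 of 9 endocrine, 4 of 7 neural, 1 of 6 erythroid and 7 of 7 mesothelial markers, where 10% of all genes were, a share near that of the erythroid markers. Immune markers summed to 156 to 164 in tumor cells, 698 to 1122 in ADM cultures, 2676 to 4280 in embryonic cells and 366 to 401 in adult cells.

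Against adult acinar cells, 39 of the 40 mitosis genes were called higher in tumor cells, where 14.0% of all genes were, and none was called lower, where 5.96% of all genes were. In ADM cultures 38 were called higher (12.5% of all genes) and none lower (4.22%), and in embryonic cells 39 were called higher (10%) and none lower (2.61%). The median log2 difference from adult cells was 3.88 in tumor cells, 2.12 in ADM cultures and 2.63 in embryonic cells, against -0.09, -0.11 and -0.09 over all genes. These 3 comparisons share the adult arrays, so that they are not independent of each other. All 3 arrays lay above all 3 adult arrays in 40 genes for tumor cells, where 22.9% of all genes did so, in 39 for ADM cultures (25.1%) and in 39 for embryonic cells (22.0%). With each array centred on housekeeping genes, 29 genes were called higher in ADM cultures, and Foxm1, Melk, Nek2, Incenp, Cdc20, Cenpa, Cenpf, Kif2c and Kif4 lost their call. Under the same centring, and under cyclic loess, 37 genes were called higher in embryonic cells, without Nek2 and Aspm.

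**Figure D3:**
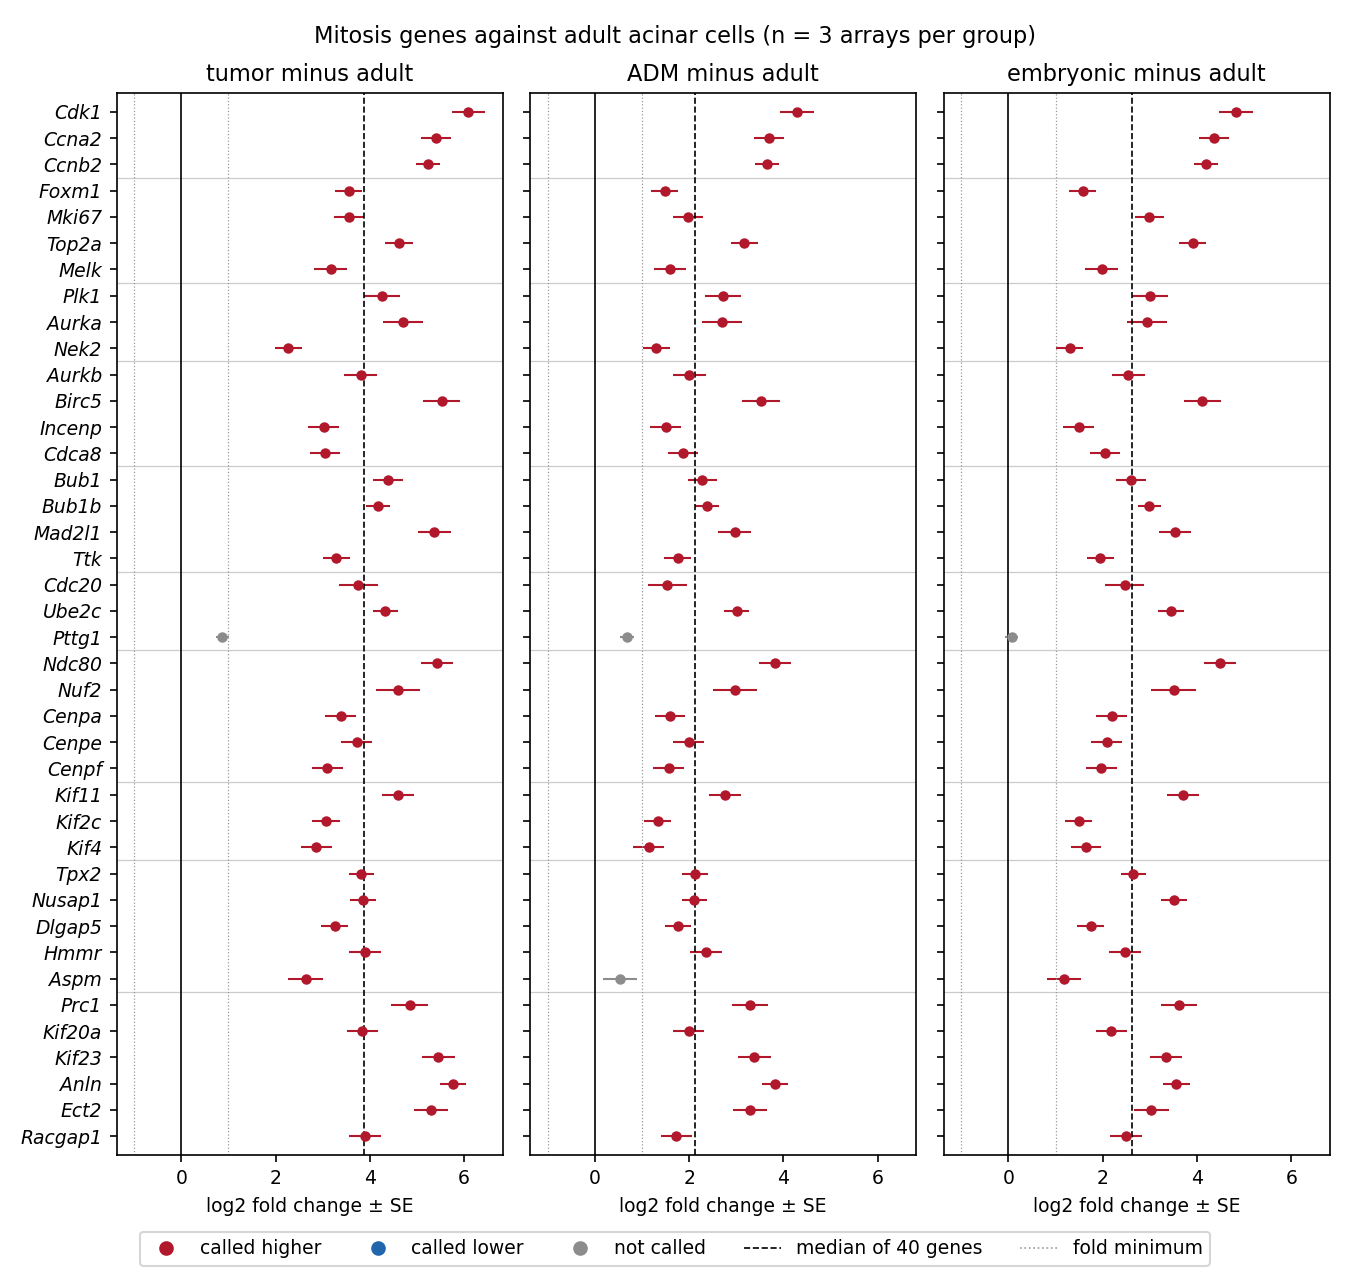
Log2 difference from adult acinar cells (x axis, point with its standard error) for tumor cells, ADM cultures and embryonic acinar cells in 3 panels, for each of 40 mitosis genes (rows), 3 arrays per group. Medians (dashed) stand at 3.88, 2.12 and 2.63, and the genes not called are Pttg1 in all 3 panels and Aspm in ADM cultures.

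Cdk1, the kinase that drives mitosis, had log2 signals of 9.56, 10.59 and 10.70 in tumor cells, 8.76, 8.10 and 8.58 in ADM cultures, 9.19, 9.08 and 8.79 in embryonic cells and 3.71, 3.83 and 5.04 in adult cells. The tumor arrays were highest, each ADM array lay below each embryonic array, and no adult array came near the others. Over adult cells Cdk1 rose by a log2 difference of 6.09 ± 0.36 in tumor cells (adjusted p = 2.24e-08), 4.29 ± 0.36 in ADM cultures (adjusted p = 1.03e-06) and 4.83 ± 0.36 in embryonic cells (adjusted p = 6.59e-07), the largest measured difference on the list in each. Ccna2 and Ccnb2, the cyclins A2 and B2 that partner Cdk1, rose by 5.41 ± 0.31 and 5.24 ± 0.26 in tumor cells. The same cyclins rose by 3.69 ± 0.31 and 3.64 ± 0.26 in ADM cultures and by 4.36 ± 0.31 and 4.19 ± 0.26 in embryonic cells.

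Among regulators and proliferation markers, Foxm1, a transcription factor that activates G2/M genes, had 6.66, 7.64 and 8.10 in tumor cells, 5.47, 5.30 and 5.43 in ADM cultures, 5.55, 5.28 and 5.66 in embryonic cells and 4.25, 3.72 and 3.78 in adult cells. Its ADM and embryonic arrays overlapped, between the tumor arrays above and the adult arrays below. Foxm1 rose over adult cells by 3.55 ± 0.29 in tumor cells (adjusted p = 4.68e-07), 1.48 ± 0.29 in ADM cultures (adjusted p = 0.00124) and 1.58 ± 0.29 in embryonic cells (adjusted p = 0.00112). Mki67, the Ki-67 protein that coats mitotic chromosomes and is used to stain dividing cells, had 7.98, 8.64 and 9.27 in tumor cells, 7.40, 6.47 and 7.28 in ADM cultures, 7.95, 8.31 and 7.93 in embryonic cells and 5.41, 4.74 and 5.06 in adult cells. For Mki67 the tumor and embryonic arrays overlapped and every ADM array lay below them. Top2a, the topoisomerase that untangles sister chromatids, rose over adult cells by 4.62 ± 0.29 in tumor cells, 3.17 ± 0.29 in ADM cultures and 3.91 ± 0.29 in embryonic cells, and Melk, a kinase of dividing cells, by 3.17 ± 0.35 in tumor cells, 1.59 ± 0.35 in ADM cultures and 1.98 ± 0.35 in embryonic cells.

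Of the mitotic kinases, Aurka, which matures centrosomes and builds the spindle, rose over adult cells by 4.70 ± 0.43 in tumor cells, 2.70 ± 0.43 in ADM cultures and 2.94 ± 0.43 in embryonic cells. Plk1, which acts from mitotic entry to cytokinesis, rose by 4.26 ± 0.38 in tumor cells, 2.72 ± 0.38 in ADM cultures and 3.01 ± 0.38 in embryonic cells. Nek2, a kinase that splits centrosomes, rose least of the kinases, by 2.27 ± 0.28 in tumor cells, 1.30 ± 0.28 in ADM cultures and 1.30 ± 0.28 in embryonic cells, and its calls in ADM cultures and embryonic cells were lost under cyclic loess and under centring on housekeeping genes. The chromosomal passenger complex corrects faulty attachments and rose as a whole: its survivin subunit Birc5 rose by 5.52 ± 0.40 in tumor cells, 3.52 ± 0.40 in ADM cultures and 4.12 ± 0.40 in embryonic cells. Its kinase Aurkb and its other subunits Incenp and Cdca8, also known as borealin, rose by 3.02 to 3.81 in tumor cells, 1.50 to 2.01 in ADM cultures and 1.49 to 2.54 in embryonic cells.

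The spindle checkpoint genes Bub1, Bub1b, Mad2l1 and Ttk were called higher than in adult cells in all 3 other groups. Mad2l1, whose product binds and holds Cdc20, had 8.02, 9.32 and 9.13 in tumor cells, 6.58, 5.99 and 6.68 in ADM cultures, 7.15, 7.01 and 6.79 in embryonic cells and 3.33, 2.93 and 4.10 in adult cells. The 4 groups did not overlap for Mad2l1. Since its adult mean was at or under background, it was at least 36.8-fold higher in tumor cells (adjusted p = 5.3e-08), at least 6.94-fold higher in ADM cultures (adjusted p = 1.91e-05) and at least 10.3-fold higher in embryonic cells (adjusted p = 7.37e-06). Bub1, a checkpoint kinase, was at least 20.6-fold higher in tumor cells, at least 4.78-fold in ADM cultures and at least 5.95-fold in embryonic cells. Its relative Bub1b, also known as BubR1, was at least 16.3-fold higher in tumor cells, at least 4.72-fold in ADM cultures and at least 7.22-fold in embryonic cells. Ttk, the kinase also called Mps1, rose by log2 differences of 3.28 ± 0.29 in tumor cells, 1.76 ± 0.29 in ADM cultures and 1.95 ± 0.29 in embryonic cells.

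Among partners of the anaphase-promoting complex, its activator Cdc20 rose over adult cells by 3.75 ± 0.41 in tumor cells, 1.53 ± 0.41 in ADM cultures and 2.46 ± 0.41 in embryonic cells. Its ubiquitin-conjugating enzyme Ube2c rose by 4.33 ± 0.27 in tumor cells, 3.01 ± 0.27 in ADM cultures and 3.45 ± 0.27 in embryonic cells. Pttg1, the securin that blocks separase until anaphase, stood apart from the rest. It had 7.17, 7.32 and 7.11 in tumor cells, 7.02, 6.97 and 7.04 in ADM cultures, 6.43, 6.31 and 6.45 in embryonic cells and 6.39, 6.11 and 6.49 in adult cells. Tumor and ADM arrays lay just above the embryonic and adult arrays, which overlapped each other. The Pttg1 difference from adult cells was 0.87 ± 0.14 in tumor cells (adjusted p = 0.000237), 0.68 ± 0.14 in ADM cultures (adjusted p = 0.00203) and 0.07 ± 0.14 in embryonic cells (adjusted p = 0.743). In tumor cells and ADM cultures it passed the p threshold and missed the fold minimum. Over the 12 arrays Pttg1 correlated at 0.693 with the mean of the other 39 genes, Aspm at 0.880 and the remaining 38 at 0.948 or more, a description over arrays that share their groups.

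At the kinetochore, Ndc80 and Nuf2, subunits of the complex that grips microtubules, were low in adult cells. Ndc80 had 7.48, 8.84 and 9.09 in tumor cells, 7.29, 6.50 and 6.85 in ADM cultures, 7.51, 7.68 and 7.45 in embryonic cells and 2.87, 2.95 and 3.33 in adult cells. Its adult arrays were all under background, and tumor replicate 1 lay among the embryonic arrays. Ndc80 was at least 28.8-fold higher in tumor cells (adjusted p = 4.23e-08), at least 9.57-fold in ADM cultures (adjusted p = 1.75e-06) and at least 15.2-fold in embryonic cells (adjusted p = 7.58e-07) than in adult cells. Nuf2 rose on the log2 scale by 4.59 ± 0.47 in tumor cells, 2.98 ± 0.47 in ADM cultures and 3.50 ± 0.47 in embryonic cells. The centromeric histone Cenpa, the kinetochore motor Cenpe and the kinetochore protein Cenpf rose by 3.10 to 3.73 in tumor cells, 1.57 to 1.99 in ADM cultures and 1.97 to 2.19 in embryonic cells.

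Of the spindle motors, Kif11, the kinesin that pushes spindle poles apart, was at least 23.0-fold higher in tumor cells, at least 6.43-fold in ADM cultures and at least 12.3-fold in embryonic cells than in adult cells. Kif2c, which takes microtubules apart at kinetochores, rose by log2 differences of 3.07 ± 0.29 in tumor cells, 1.34 ± 0.29 in ADM cultures and 1.49 ± 0.29 in embryonic cells. Kif4, a chromosome-bound kinesin, rose by 2.86 ± 0.33 in tumor cells, 1.14 ± 0.33 in ADM cultures and 1.65 ± 0.33 in embryonic cells. Its call in ADM cultures was lost without ADM replicate 1 (adjusted p = 0.0672) or adult replicate 1 (adjusted p = 0.0635). That call was also lost under quantile normalization (0.975, under the fold minimum) and cyclic loess (0.73, adjusted p = 0.13). Among spindle assembly factors, Tpx2, which activates Aurora A, rose by 3.82 ± 0.27 in tumor cells, 2.12 ± 0.27 in ADM cultures and 2.65 ± 0.27 in embryonic cells. Nusap1 rose by 3.86 ± 0.27 in tumor cells, 2.11 ± 0.27 in ADM cultures and 3.51 ± 0.27 in embryonic cells. Dlgap5 and Hmmr, both microtubule binders, rose by 3.25 ± 0.28 and 3.89 ± 0.34 in tumor cells, 1.77 ± 0.28 and 2.35 ± 0.34 in ADM cultures and 1.74 ± 0.28 and 2.48 ± 0.34 in embryonic cells. Aspm, a spindle pole protein, had 5.41, 6.74 and 7.16 in tumor cells, 4.48, 4.04 and 4.49 in ADM cultures, 5.26, 4.82 and 4.86 in embryonic cells and 3.36, 4.24 and 3.80 in adult cells. Its ADM and adult arrays overlapped, and the difference between them was 0.54 ± 0.36 (adjusted p = 0.263). Aspm rose in embryonic cells by 1.18 ± 0.36 (adjusted p = 0.0271), a call that was lost without embryonic replicate 1 or 3 or adult replicate 1 or 3, with adjusted p between 0.0502 and 0.0982.

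The central spindle and cytokinesis genes had median differences from adult cells of 5.07 in tumor cells, 3.30 in ADM cultures and 3.19 in embryonic cells (3.11 with adult values raised to background), the highest of the roles after Cdk1 and its cyclins, though differences between roles were not tested. Anln, the anillin that links the cleavage furrow to the cortex, had 8.33, 9.16 and 9.55 in tumor cells, 7.33, 6.59 and 7.30 in ADM cultures, 7.09, 6.74 and 6.60 in embryonic cells and 3.18, 3.21 and 3.35 in adult cells. Its ADM and embryonic arrays overlapped and its adult arrays were all under background. Anln was at least 42.0-fold higher in tumor cells (adjusted p = 4.41e-09), at least 10.9-fold in ADM cultures (adjusted p = 3.46e-07) and at least 9.12-fold in embryonic cells (adjusted p = 1.18e-06). Kif23, a motor of the centralspindlin complex, was at least 43.5-fold higher in tumor cells, at least 10.3-fold in ADM cultures and at least 10.03-fold in embryonic cells. Its partner Racgap1 rose by log2 differences of 3.90 ± 0.33 in tumor cells, 1.73 ± 0.33 in ADM cultures and 2.50 ± 0.33 in embryonic cells. Ect2, an exchange factor that acts at the cleavage furrow, rose by 5.30 ± 0.37 in tumor cells, 3.29 ± 0.37 in ADM cultures and 3.03 ± 0.37 in embryonic cells. Prc1, which bundles the central spindle, rose by 4.84 ± 0.38 in tumor cells, 3.30 ± 0.38 in ADM cultures and 3.61 ± 0.38 in embryonic cells, and the kinesin Kif20a by 3.84 ± 0.33 in tumor cells, 1.99 ± 0.33 in ADM cultures and 2.19 ± 0.33 in embryonic cells.

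Tumor cells were then set against ADM cultures, and 38 of the 40 genes were called higher, where 3.28% of all genes were, and none lower, where 5.07% were. The median difference was 1.73, against 0.06 over all genes, and in 39 genes all tumor arrays lay above all ADM arrays, as in 17.7% of all genes. Mad2l1 differed most, by 2.41 ± 0.34 (adjusted p = 0.000291), followed by Cdc20 with 2.22 ± 0.41 (adjusted p = 0.00228) and Racgap1 with 2.17 ± 0.33 (adjusted p = 0.000512). Apart from Pttg1 and Nek2, the differences kept to a narrow range, from 1.19 ± 0.32 for Cdca8 to that of Mad2l1. Pttg1 differed by 0.19 ± 0.14 (adjusted p = 0.481). Nek2 differed by 0.97 ± 0.28 (adjusted p = 0.035), just short of the fold minimum, and was the gene whose arrays overlapped, with 5.88, 6.85 and 7.32 in tumor cells and 5.94, 5.51 and 5.70 in ADM cultures. The calls of Plk1, Cdca8, Nuf2 and Prc1 were lost without tumor replicate 2 or 3 or ADM replicate 2 (adjusted p between 0.0557 and 0.149), those of Cdca8 and Nuf2 also without ADM replicate 1 or 3, and Nek2 was called without tumor replicate 1.

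Against embryonic acinar cells, 31 genes were called higher in tumor cells (6.53% of all genes) and none lower (7.80%). The median difference was 1.26, against 0.07 over all genes, and all tumor arrays lay above all embryonic arrays in 30 genes, as in 22.1% of all genes. The 3 largest differences were those of cytokinesis genes: Ect2 rose by 2.26 ± 0.37 (adjusted p = 0.00042), Anln by 2.20 ± 0.28 (adjusted p = 5.2e-05) and Kif23 by 2.12 ± 0.34 (adjusted p = 0.000421). Ect2 had 8.14, 9.34 and 9.36 in tumor cells and 6.89, 6.68 and 6.48 in embryonic cells, with a wide gap between the groups. Foxm1 followed with 1.97 ± 0.29 (adjusted p = 0.000171), then Mad2l1 with 1.84 ± 0.34 (adjusted p = 0.00124). The genes not called were Mki67, Top2a, Nek2, Ube2c, Pttg1, Ndc80, Nuf2, Kif11 and Nusap1, with differences between 0.35 ± 0.27 for Nusap1 and 1.09 ± 0.47 for Nuf2.

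The count against embryonic cells rested on single arrays. It was 37 without tumor replicate 1, 18 without tumor replicate 2, 16 without tumor replicate 3 and 18 without embryonic replicate 3. Leaving out tumor replicate 1 added calls for Top2a, Nek2, Ube2c, Ndc80, Nuf2 and Kif11, and in 9 of the 10 genes whose groups overlapped, replicate 1 was the one tumor array not above the embryonic arrays. Under all 23 alternative settings run, 16 of the 31 kept their call: Foxm1, Aurka, Incenp, Bub1, Mad2l1, Ttk, Cenpe, Kif2c, Dlgap5, Hmmr, Aspm, Kif20a, Kif23, Anln, Ect2 and Racgap1. Cdk1 and Ccnb2 were not among these 16.

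**Figure D4:**
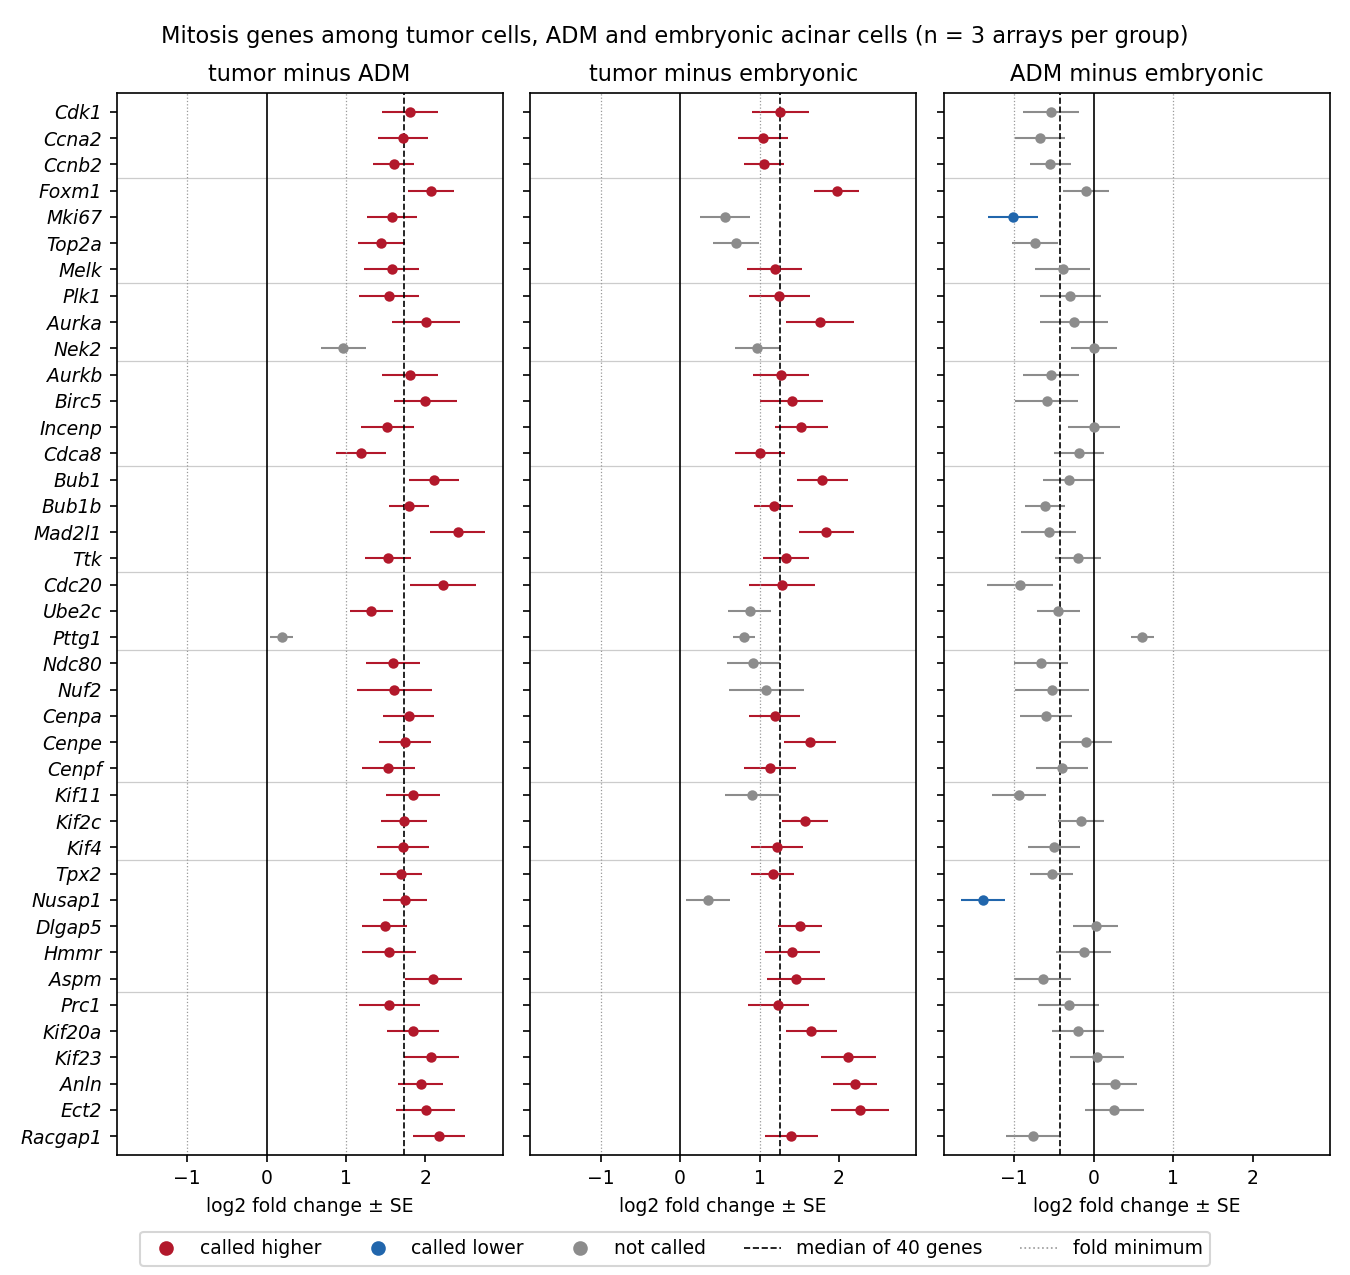
Log2 differences (x axis, point with its standard error) of tumor cells from ADM cultures, tumor cells from embryonic cells and ADM cultures from embryonic cells, in 3 panels, for 40 mitosis genes (rows), 3 arrays per group. The medians (dashed) are 1.73, 1.26 and -0.42, and in the third panel only Mki67 and Nusap1 are called.

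ADM cultures and embryonic acinar cells were seldom separated by the test in these genes: none was called higher in ADM cultures (4.55% of all genes) and 2 were called lower (4.91%), which is near the background share. Nusap1 had 6.83, 6.35 and 6.76 in ADM cultures and 8.32, 8.0 and 7.80 in embryonic cells, with no overlap. It fell by 1.39 ± 0.27 (adjusted p = 0.00258), and kept that call in all 23 alternatives run. Mki67 fell by 1.01 ± 0.31 (adjusted p = 0.0405), at the edge of both thresholds, and its call was lost without ADM replicate 2 (-0.72, adjusted p = 0.187) and without any one of ADM replicate 3, tumor replicate 2, adult replicate 3 or the 3 embryonic arrays (adjusted p between 0.0533 and 0.14). The median over the 40 genes was -0.42, against 0.0033 over all genes, and 33 of the 40 differences were below 0. As the genes moved together over the arrays, these signs are not separate results. With tumor replicate 1 and ADM replicate 2 left out, the median was -0.25. All ADM arrays lay below all embryonic arrays in 15 genes, where 17.5% of all genes did, among them Cdk1, Ccna2, Ccnb2 and Top2a, and above them in 1, Pttg1, where 20.1% did. Pttg1 differed by 0.61 ± 0.14 (adjusted p = 0.0075) and missed the fold minimum. The standard errors, from 0.14 to 0.47 across the list, leave room for differences of the size of the median of -0.42. A gene that missed the threshold here is thus not shown to be equal in both groups.

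By role, the median differences between ADM cultures and embryonic cells were not alike in size. The median difference of the 6 cytokinesis genes was -0.08, with Ect2 at 0.26 ± 0.37, Anln at 0.26 ± 0.28 and Kif23 at 0.04 ± 0.34. The kinetochore genes had a median of -0.52, the cyclins with Cdk1 -0.55 and the regulators -0.56. None of these differences but that of Mki67 passed the test, and the difference between roles was not tested.

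Other genes of the same processes, from lists given in the design, were read the same way, and their counts against adult cells stand beside the 14.0%, 12.5% and 10% of all genes called higher in tumor cells, ADM cultures and embryonic cells. Of 29 further kinetochore and centromere genes, 28 were called higher in tumor cells than in adult cells, 19 in ADM cultures and 20 in embryonic cells. Knl1, the scaffold of the outer kinetochore, was under background in adult cells and was at least 23.5-fold higher in tumor cells (adjusted p = 3.63e-07), at least 5.87-fold in ADM cultures (adjusted p = 8.52e-05) and at least 10.3-fold in embryonic cells (adjusted p = 1.53e-05). The kinetochore protein Cenph, also under background in adult cells, was at least 16.6-fold higher in tumor cells (adjusted p = 1.88e-07), and Spdl1 rose there by a log2 difference of 3.96 ± 0.28. Against embryonic cells, 2 of the 29 were called lower in ADM cultures, near the 4.91% of all genes. They were Spc24 and Spc25, which complete the complex of Ndc80 and Nuf2, with differences of -1.37 ± 0.38 (adjusted p = 0.0237) and -1.04 ± 0.26 (adjusted p = 0.0131). The call of Spc24 was lost without ADM replicate 2 or 3 or embryonic replicate 1 or 2 (adjusted p between 0.0623 and 0.0973), and that of Spc25 without ADM replicate 2 (adjusted p = 0.0636) or embryonic replicate 1 (adjusted p = 0.0625). Ndc80 and Nuf2 themselves differed by -0.67 ± 0.34 and -0.52 ± 0.47 there, without a call.

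Of 19 condensin, cohesin and separase genes, 15 were called higher in tumor cells than in adult cells, 9 in ADM cultures and 11 in embryonic cells. The condensin subunits Smc4, Smc2 and Ncapd2 rose by 4.49 ± 0.28, 4.36 ± 0.30 and 4.15 ± 0.36 in tumor cells. The list for the anaphase-promoting complex held 17 genes, among them Fbxo5, Fzr1 and Ube2s, which are regulators or enzymes and not core subunits. In all, 13 of the 17 were called higher in tumor cells than in adult cells, 9 in ADM cultures and 5 in embryonic cells. The median differences were 1.34, 1.02 and 0.84 in that order. The inhibitor Fbxo5 rose in tumor cells by 3.17 ± 0.41, the subunit Cdc23 by 2.37 ± 0.27 and the chain-extending enzyme Ube2s by 2.08 ± 0.21. Tumor cells exceeded ADM cultures in 3 of the 17 genes, Fbxo5, Ube2s and Anapc15 (3.28% of all genes), and embryonic cells in 2, Ube2s and Anapc15 (6.53% of all genes). Against ADM cultures, Ube2s and Anapc15 missed the fold minimum without tumor replicate 2 or 3, and Anapc15 also without ADM replicate 2.

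Of 13 genes of mitotic entry, 11 were called higher in tumor cells than in adult cells, 8 in ADM cultures and 11 in embryonic cells. Cks2, a small subunit of Cdk complexes, rose by 5.96 ± 0.28 in tumor cells, 5.08 ± 0.28 in ADM cultures and 5.07 ± 0.28 in embryonic cells, and its difference between tumor cells and ADM cultures was 0.88 ± 0.28 (adjusted p = 0.0518). Pbk, a mitotic kinase, and Arhgap11a rose by 4.62 ± 0.37 and 4.43 ± 0.30 in tumor cells. Gtse1 was the 1 gene of these lists called higher in ADM cultures than in embryonic cells, where 4.55% of all genes were. It differed by 1.19 ± 0.36 (adjusted p = 0.0343), and that call was lost without ADM replicate 1 or 3 or any one embryonic array (adjusted p between 0.0676 and 0.137). Of 19 further spindle and midbody genes, 17 were called higher in tumor cells than in adult cells and 14 in each of ADM cultures and embryonic cells. Tacc3 and Ckap2 rose by 4.28 ± 0.38 and 3.92 ± 0.33 in tumor cells, and Cep55, which acts at the midbody in the final cut between daughter cells and was under background in adult cells, was at least 15.4-fold higher there (adjusted p = 1.37e-06). Cep55 exceeded embryonic cells by 2.59 ± 0.37 (adjusted p = 0.000129) in tumor cells. In ADM cultures against embryonic cells, 1 of the 19, Fam83d, was called lower, near the 4.91% of all genes. Fam83d fell by 1.31 ± 0.34 (adjusted p = 0.0172), a call lost without ADM replicate 2 or embryonic replicate 1 or 2 (adjusted p between 0.06 and 0.0704).

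Of 10 centriole duplication genes, 8 were called higher in tumor cells than in adult cells, 7 in ADM cultures and 5 in embryonic cells. Plk4, the kinase that starts centriole duplication, rose by 3.74 ± 0.27 in tumor cells and Cep192 by 2.91 ± 0.17. Stil, under background in adult cells, was at least 7.12-fold higher in tumor cells (adjusted p = 3.58e-07). Of 19 DREAM, B-MYB and E2F factors, which time the transcription of cell cycle genes, 13 were called higher in tumor cells than in adult cells. Another 2, Lin37 and Tfdp2, were called lower there, where 5.96% of all genes were. ADM cultures had 7 higher and Lin37 lower (4.22% of all genes called lower). Embryonic cells had 6 higher and Tfdp2 lower (2.61% called lower). With so few genes, these lower counts stand close to those shares. Tfdp2 missed the fold minimum without adult replicate 1 or 3 in both comparisons, and without tumor replicate 2 or embryonic replicate 1 in its own. E2f8, a repressive E2F, rose by 3.70 ± 0.31 in tumor cells, E2f3 by 2.70 ± 0.21 and the pocket protein gene Rbl1 by 2.46 ± 0.30. Lin37, a MuvB subunit, fell by 1.19 ± 0.19 in tumor cells and by 1.21 ± 0.19 in ADM cultures, against adult cells. Against embryonic cells Lin37 was also called lower, at -1.02 ± 0.19 in tumor cells (7.80% of all genes) and -1.04 ± 0.19 in ADM cultures (4.91%). Those calls missed the fold minimum without embryonic replicate 2, and also without tumor replicate 2 or ADM replicate 2, each in its own comparison.

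DNA replication genes, which act in S phase, gave the same order of groups. All 28 measured were called higher in tumor cells than in adult cells, 22 in ADM cultures and 26 in embryonic cells, with medians of 2.94, 1.68 and 1.73. Their mean log2 signal was 7.03, 7.93 and 7.86 in tumor cells, 6.46, 6.14 and 6.37 in ADM cultures, 6.66, 6.56 and 6.37 in embryonic cells and 4.56, 4.57 and 4.59 in adult cells. Tumor replicate 1 and ADM replicate 2 were again the lowest of their groups. Mcm6 and Mcm4, subunits of the replicative helicase, rose by 4.57 ± 0.15 and 4.36 ± 0.23 in tumor cells, and Rrm1, a ribonucleotide reductase subunit, by 4.47 ± 0.30. Mcm6 differed from ADM cultures by 0.56 ± 0.15 in tumor cells (adjusted p = 0.0254), under the fold minimum.

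**Figure D5:**
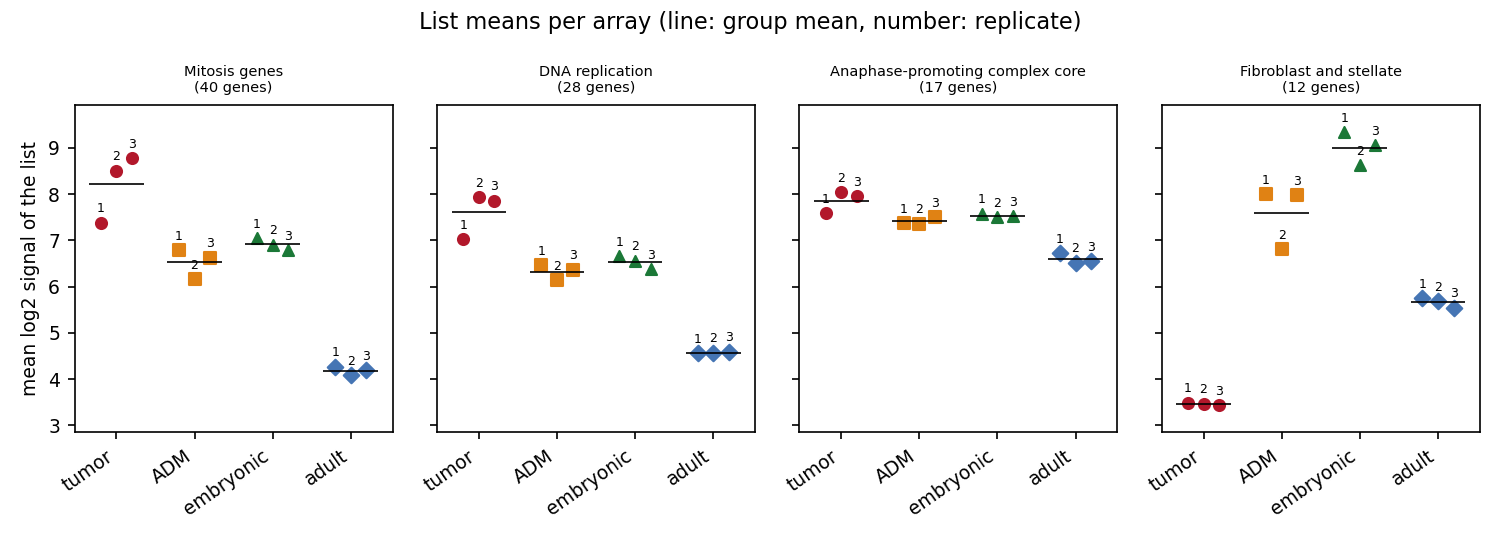
Mean log2 signal (y axis) per array by group (x axis), with the replicate number at each point and a line at the group mean. The panels hold 40 mitosis genes, 28 DNA replication genes, 17 genes listed for the anaphase-promoting complex and 12 fibroblast and stellate markers. The panel titled as the core of the complex includes regulators. In the mitosis panel tumor replicate 1 lies at 7.39, below 8.51 and 8.78, and in the fibroblast panel the tumor arrays lie lowest and the embryonic arrays highest.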

How the data were processed

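The authors' deposited table holds log2 signal values for 41345 probe sets on 12 Affymetrix arrays, from 1.56 to 13.67. How the authors summarised and normalized them is not given in the sources used here. Of these probe sets, 23521 had 1 gene symbol in GEO's platform annotation, 1814 several and 16010 none, which left 22180 genes. The values were used as deposited and fitted by group with limma 3.58.1 in R 4.3.3, and summaries were made in Python 3.11.15 with pandas 2.3.3. The fit had 8 residual and 5.02 prior degrees of freedom and was tested on simulated data. The 41 genes and all lists were chosen with earlier results of these data known. Named besides the list were, for each pathway list, the 3 called genes with the largest difference, and the 10 other genes most correlated with the list's mean, plus genes in counts of 3 or fewer, named after their values were seen. The main fit did not pair arrays by replicate number. Correlations of same-numbered deviations over all genes ran from -0.05 to 0.13, which does not settle whether such arrays shared a preparation. Alternatives were 3 scalings, a filter on dim genes, other probe sets, array weights, smaller fits, a replicate block, no fold minimum and arrays left out.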

Additional observations from a re-analysis of the deposited data

How the results depend on the processing

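No called difference of the 40 mitosis genes, and none of the 135 of 31 named pathway genes, reversed under any alternative run, while 35 of those 135 lost their call in at least 1. The marker genes were not run under the alternatives. Centring each array on 12 housekeeping genes shifted the median of all genes by -0.69, -0.70 and -0.41 for tumor cells, ADM cultures and embryonic cells against adult cells, and by 0.01, -0.28 and -0.30 for tumor against ADM, tumor against embryonic and ADM against embryonic cells. The median of the mitosis genes then was 3.19, 1.42 and 2.22 against adult cells and -0.72 for ADM against embryonic cells. Cyclic loess gave 1.70 for ADM cultures and 2.33 for embryonic cells against adult cells. Tumor cells exceeded embryonic cells in 20 mitosis genes under loess and 17 under centring, and 29 kept their call in ADM cultures against adult cells in all 23 alternatives. Of all called genes, the share called higher against adult cells was 70.2% in tumor cells, 74.7% in ADM cultures and 79.3% in embryonic cells, but 57.4%, 59.4% and 64.0% after quantile normalization, 53.0%, 59.4% and 69.1% after loess and 18.5%, 14.3% and 37.2% after centring. Between the other pairs centring gave 26.6% for tumor against embryonic cells, where the deposited scale gave 45.6%, and 27.2% for ADM against embryonic cells, where it gave 48.1%.

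Of ADM against embryonic cells, 6 genes were called lower after centring and 1 with all probe sets fitted, with array weights, with the replicate block and without the low arrays tumor 1 and ADM 2, an alternative chosen after seeing the data. With no fold minimum 1 gene, Pttg1, was called higher. The replicate block left 237 of 240 calls of the 40 genes in 6 comparisons as they were, and 3 lost significance. Leaving out each array in turn gave medians of 3.57 to 4.34, 2.02 to 2.27 and 2.56 to 2.76 for tumor cells, ADM cultures and embryonic cells against adult cells, 1.43 to 2.12 for tumor against ADM, 1.00 to 1.73 for tumor against embryonic and -0.56 to -0.25 for ADM against embryonic cells. Counts called higher were 39 to 39, 37 to 38, 38 to 39, 34 to 39 and 16 to 37 in the first 5 of these, and 1 to 2 were called lower in the last. The number of arrays limits the precision, and the causes of these shifts were not tested.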

Other observations

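Outside the list, the 10 genes whose log2 signal followed the mean of the mitosis genes most closely over the 12 arrays were Prr11, Trim59, Vrk1, Uhrf1, Ncapg2, Pclaf, Knl1, Pbk, Ncaph and Haus4, with correlations from 0.988 to 0.995, a description over arrays that share their groups. Prr11 averaged 9.37 ± 0.78 in tumor cells, 6.68 ± 0.47 in ADM cultures, 7.41 ± 0.01 in embryonic cells and 3.55 ± 0.30 in adult cells (SD, n = 3 each). Trim59 averaged 9.27 ± 0.74 in tumor cells, 7.14 ± 0.11 in ADM cultures, 7.57 ± 0.12 in embryonic cells and 4.22 ± 0.21 in adult cells. Vrk1, a kinase that acts on chromatin at mitotic entry and exit, averaged 8.17 ± 0.60 in tumor cells, 6.73 ± 0.16 in ADM cultures, 7.05 ± 0.03 in embryonic cells and 4.93 ± 0.18 in adult cells.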
